A study of Mus musculus with 4 samples.

Results

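The genes described here are the cytochrome P450 genes and the genes of the aryl hydrocarbon receptor (AhR) pathway, read in 4 libraries of imiquimod-treated mouse skin. They were chosen by symbol: names made of Cyp, a family number, a subfamily letter and a gene number, together with Ahr, Ahrr, Arnt, Tiparp, Aldh3a1 and Por. Of 99 symbols that matched among the 20611 in the tables, 51 had 10 or more counts in at least 1 library and were kept, 45 P450 genes and 6 others. All 51 passed the filter of the count test. Of the 48 left out, 20 had no count in any library and 28 had 1 to 9 counts at most. Just outside the count minimum were Cyp4f14, with 9 counts in its highest library, and Cyp21a1 and Cyp26c1, with 8 each. Just inside were Cyp1a2 with 12, Cyp2b9 and Cyp3a59 with 13 and Cyp4f18 with 14.

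Every library came from the back skin of male BALB/c mice, 8 to 9 weeks old, that received 47 mg of 5% imiquimod (IMQ) cream a day from day 1 to day 5. Imiquimod is an agonist of the innate immune receptor TLR7 and causes a scaling, psoriasis-like inflammation of mouse skin. The IMQ group (1 library) had the cream alone. The IMQ+VEH group (2 libraries, replicates 1 and 2) also had a placebo lotion about 1 h after the cream, and the IMQ+IDMF group (1 library) had that lotion with IDMF added, a fumarate ester whose full name is isosorbide di-(methyl fumarate). All skin was collected on day 6. The amount of IDMF in the lotion, and how many mice gave each library, are not stated in the labels. Every group carried imiquimod, so each comparison is between imiquimod-treated skins.

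P450 enzymes are heme proteins that insert oxygen into fatty acids, sterols, retinoids, vitamin D and foreign compounds. Those of the endoplasmic reticulum take their electrons from the reductase encoded by Por. AhR is a ligand-activated transcription factor: once a ligand binds, it enters the nucleus, pairs with ARNT and binds DNA at a core of GCGTG. Its best known target genes are those of the Cyp1 family, and AHRR and TIPARP, which it also induces, restrain it. In skin the receptor is known for responses to light, tobacco smoke, coal tar and tryptophan products, and it is the target of the psoriasis drug tapinarof. Epidermal P450 enzymes are known for their part in barrier lipids, retinoic acid breakdown and vitamin D activation.

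Promoters of 6 members are shown: 4 of the AhR pathway, and the 2 members that passed the test between groups. The sequences run from 250 bases before to 50 bases after a RefSeq start site in GRCm38.p6, the C57BL/6J reference and not BALB/c. Capitals mark GCGTG, read on both strands (CACGC on the strand shown), in the first 4. The windows are Cyp1a1 (chr9:57697363-57697662, plus strand), Cyp1b1 (chr17:79715012-79715311, minus strand), Ahrr (chr13:74292282-74292581, minus strand) and Tiparp (chr3:65528197-65528496, plus strand).
Cyp1a1: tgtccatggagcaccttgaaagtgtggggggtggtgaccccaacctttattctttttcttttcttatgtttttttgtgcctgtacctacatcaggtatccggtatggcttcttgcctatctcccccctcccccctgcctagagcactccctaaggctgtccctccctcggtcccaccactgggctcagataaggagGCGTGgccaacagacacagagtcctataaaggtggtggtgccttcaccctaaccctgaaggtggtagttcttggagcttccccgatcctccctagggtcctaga
Cyp1b1: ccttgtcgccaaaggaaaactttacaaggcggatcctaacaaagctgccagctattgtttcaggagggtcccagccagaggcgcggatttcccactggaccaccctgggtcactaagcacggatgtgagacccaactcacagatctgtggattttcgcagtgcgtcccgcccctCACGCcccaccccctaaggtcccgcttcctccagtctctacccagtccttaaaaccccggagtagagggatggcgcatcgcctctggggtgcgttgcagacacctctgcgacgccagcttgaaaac
Ahrr: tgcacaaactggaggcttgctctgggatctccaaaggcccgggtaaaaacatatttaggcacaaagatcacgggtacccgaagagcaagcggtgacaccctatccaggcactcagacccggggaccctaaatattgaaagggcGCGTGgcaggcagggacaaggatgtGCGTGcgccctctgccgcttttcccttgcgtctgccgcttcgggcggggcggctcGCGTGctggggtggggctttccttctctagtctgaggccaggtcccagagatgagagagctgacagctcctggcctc
Tiparp: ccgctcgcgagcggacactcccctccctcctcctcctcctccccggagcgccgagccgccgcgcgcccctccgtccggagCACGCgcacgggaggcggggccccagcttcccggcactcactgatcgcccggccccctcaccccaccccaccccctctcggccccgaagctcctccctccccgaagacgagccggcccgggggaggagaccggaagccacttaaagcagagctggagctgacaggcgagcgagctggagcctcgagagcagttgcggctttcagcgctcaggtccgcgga
The core begins 54 bases before the start site in Cyp1a1, 76 before it in Cyp1b1 and 170 before it in Tiparp. Ahrr holds 3 copies, at 107, 82 and 27 bases before the start. Of the related windows not shown, that of Cyp1a2 holds no copy, that of Arnt 1 and that of Por 3. Of the 51 members 41 had an entry in the RefSeq promoter table, with 43 windows. The core lay in 17 of these 43 windows (39.5%), and in 10639 of all 32851 windows of the same length (32.4%). A match in a window is a description of its letters and no evidence of binding.

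The next pair are Cyp2e1 (chr7:140763569-140763868, plus strand) and Cyp2f2 (chr7:27119705-27120004, plus strand), the members that passed the test. Capitals mark TATAAA, the TATA box motif, read on both strands (TTTATA on the strand shown).
Cyp2e1: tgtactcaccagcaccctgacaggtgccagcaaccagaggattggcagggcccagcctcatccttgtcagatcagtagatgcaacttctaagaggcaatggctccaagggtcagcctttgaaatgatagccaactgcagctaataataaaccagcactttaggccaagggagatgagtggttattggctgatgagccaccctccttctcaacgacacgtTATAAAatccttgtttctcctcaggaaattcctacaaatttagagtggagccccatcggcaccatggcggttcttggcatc
Cyp2f2: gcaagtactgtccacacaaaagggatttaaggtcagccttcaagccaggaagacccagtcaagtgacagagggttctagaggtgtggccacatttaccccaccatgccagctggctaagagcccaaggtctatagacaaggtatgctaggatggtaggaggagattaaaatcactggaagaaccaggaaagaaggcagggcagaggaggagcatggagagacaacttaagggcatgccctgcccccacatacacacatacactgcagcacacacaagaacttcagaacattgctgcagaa
The motif begins 31 bases before the start in Cyp2e1, and these letters are not in the Cyp2f2 window. TATAAA lay in 13.6% of all windows and in 6 of the 43 windows of members.

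Total counts were 21167149 to 26639628 per library, and counts were found for 16016 to 16648 genes. Members took 0.119% of all counts in IMQ, 0.17% and 0.164% in IMQ+VEH replicates 1 and 2, and 0.17% in IMQ+IDMF. A count of 3, taken as the floor of detection, equals 0.107 to 0.146 counts per 1000000 (CPM, scaled to library size by the TMM method), for counting error only. The skin label was met by keratinocyte markers (Krt5, Krt14, Krt1, Krt10, Dsg3 and Trp63), which summed to 42211 to 55443 CPM. Hepatocyte markers, looked at because many P450 genes are best known from liver, summed to 3.63 to 7.66 CPM. Apoa1, Ttr, Tat and Apob had 0 counts in IMQ and both IMQ+VEH libraries. In IMQ+IDMF Apoa1 had 1 count, Ttr and Apob had 3 each, and Tat had 0. Of the other hepatocyte markers, Serpina1a had 66 counts in IMQ, 79 and 35 in IMQ+VEH and 76 in IMQ+IDMF, and Alb had 26, 136, 98 and 68. The test took its spread from the IMQ+VEH replicates alone, and assumed the same spread for the other groups, which have 1 library each. Between the 2 IMQ+VEH libraries 12 of 51 members differed over 2-fold, against 9.99% of all 15068 genes tested.

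Levels between genes were compared per transcript length, in the deposited FPKM values. Cyp2e1 led the set by mean level, with 33 FPKM in IMQ, 292 and 182 in IMQ+VEH and 216 in IMQ+IDMF. In the IMQ library Cyp2b19 (82.6 FPKM) and Cyp4f39 (36.4 FPKM) stood higher. Next by mean level came the epidermal epoxygenase gene Cyp2b19 (48.6 to 82.6 FPKM over the 4 libraries), Por (31.6 to 42.4) and Cyp4f39 (29.8 to 38.8). Of the 51 members 7 had at least 10 FPKM in every library, and 14 stayed under 1 FPKM in all 4. The AhR gene itself (7.32 to 8.8 FPKM), Arnt (6.43 to 8.52) and Tiparp (7.31 to 8.6) lay close together. The repressor gene Ahrr stood far lower, at 0.201 to 0.458 FPKM. Cyp1a2, a liver enzyme of the same family as Cyp1a1, had 4 to 12 counts per library.

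**Figure D1:**
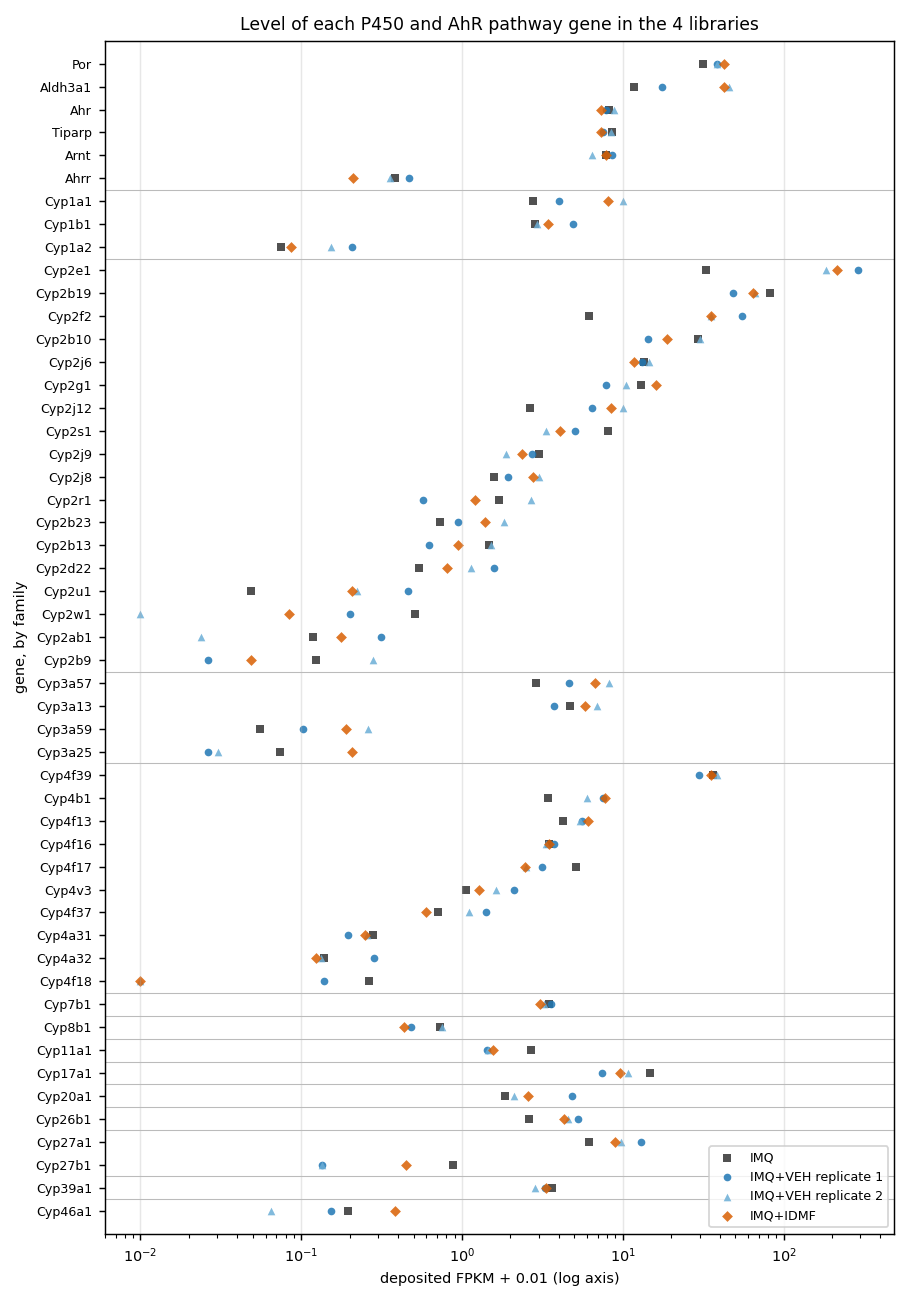
Deposited FPKM (plus 0.01, log axis) of the 51 members, 1 row per gene and 1 point per library, ordered by family and by mean level within it. Cyp2e1 and Cyp2f2 are the rows in which the IMQ library (square) sits farthest below the 3 lotion libraries at a high level.

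IMQ+VEH against IMQ asked what the lotion without IDMF does on imiquimod-treated skin. Cyp2e1 and Cyp2f2 rose about alike, by 2.73 and 2.77 on the log2 scale, and were the only members that passed the test. Cyp2e1 encodes an enzyme known for oxidizing ethanol, acetone and other small molecules, and Cyp2f2 one known for activating naphthalene in mouse airway. By edgeR's quasi-likelihood test with Benjamini-Hochberg adjustment over all 15068 genes, 2 of 51 members passed, both higher, against 0.664% of all genes (0.338% higher and 0.325% lower). The split of all genes called moved from 51 higher and 49 lower to 140 and 62 with DESeq2, 310 and 114 without a filter on low counts, and 20 and 35 with all lotion libraries as 1 group. At an unadjusted p under 0.05 there were 14 of 51 members, against 8.81% of all genes. Both IMQ+VEH libraries lay above IMQ for 20 members, against 33.6% of all genes, and below it for 19, against 35% of all genes. The nearer IMQ+VEH library was farther from IMQ than the pair was wide for 19 members, against 34.3% of all genes. Over all 51 members the median log2 difference was -0.08, beside -0.01 over all genes tested. The members were more spread out, with a root mean square difference of 1.07 against 0.643 over all genes. Between the 2 IMQ+VEH libraries the same measure was 1.008 for members against 0.639 over all genes. The wider spread of members was therefore not particular to the comparison with IMQ.

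Cyp2e1 had 72.9 CPM in IMQ, 578 and 392 in IMQ+VEH replicates 1 and 2, and 456 in IMQ+IDMF. IMQ lay apart from the 3 lotion libraries, which stand 5.37 to 7.92 times above it. IMQ+IDMF lay between the IMQ+VEH replicates. The log2 fold change of Cyp2e1, IMQ+VEH over IMQ, was 2.73 (SE 0.43, edgeR adjusted p = 0.0129). Cyp2f2 had 14.3 CPM in IMQ, 115 and 79.7 in IMQ+VEH and 78.9 in IMQ+IDMF. Again IMQ stands alone, 5.52 to 8.05 times below the others. Its log2 fold change was 2.77 (SE 0.34, edgeR adjusted p = 0.00268). With IMQ+IDMF joined to the IMQ+VEH library that stayed, both genes passed whichever IMQ+VEH library was left out. The count of members called was 2 without replicate 2 and 7 without replicate 1 in those fits, where Aldh3a1, Cyp1a1, Cyp2j12 and Cyp3a57 joined as higher and Cyp2s1 as lower. Cyp2e1 took 5.89% of the members' counts in IMQ and 35.7%, 23.2% and 27.4% in the lotion libraries. Cyp2b19, the largest contributor in IMQ with 24.5%, took 9.86% to 14% in the others. Of the spliced Cyp2e1 transcript 4.76% of 50-base windows also occur in transcripts of other genes, and of Cyp2f2 0%, while an exon of Cyp2f2 overlaps Gm15883 on the other strand.

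Markers of fat cells moved with these genes. In both IMQ+VEH libraries all 8 adipocyte markers exceeded IMQ, and 4 passed the test: Adipoq, Plin1, Cidec and Retn. No adipocyte marker was at 0 in any library. Their summed level was 1284 CPM in IMQ, 4951 and 3581 in IMQ+VEH and 3958 in IMQ+IDMF, so that the lotion libraries stood 2.79 to 3.86 times above IMQ. Measured against this sum, Cyp2e1 was 5.68% in IMQ and 11.7%, 10.9% and 11.5% in the lotion libraries, and Cyp2f2 was 1.11% in IMQ and 2.33%, 2.23% and 1.99%. Sebaceous gland markers (10 of 10 above IMQ in both, 1 called, none at 0) summed to 576 CPM in IMQ, 1155 and 1755 in IMQ+VEH and 1649 in IMQ+IDMF. Skeletal muscle markers (5 of 5 above, 0 called, none at 0) summed to 10687, 20534, 14614 and 19271 CPM in the same order. Fibroblast markers (6 of 7 above, 0 called, none at 0) summed to 1706 CPM in IMQ, 6367 and 3322 in IMQ+VEH and 2183 in IMQ+IDMF. Endothelial markers (4 of 5 above, 0 called, none at 0) summed to 74, 180, 80.6 and 113 CPM, and mast cell markers (4 of 4 above, 0 called, none at 0) to 21.6, 32.8, 26.3 and 17.2 CPM. The hepatocyte sum was 1.79 to 2.11 times that of IMQ in the lotion libraries, with Alb above IMQ in all 3 (0 of 2 tested markers called). The part of these cell types in the Cyp2e1 and Cyp2f2 results was not tested. In bulk skin, fewer cells of a type and less RNA per cell cannot be told apart.

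**Figure D2:**
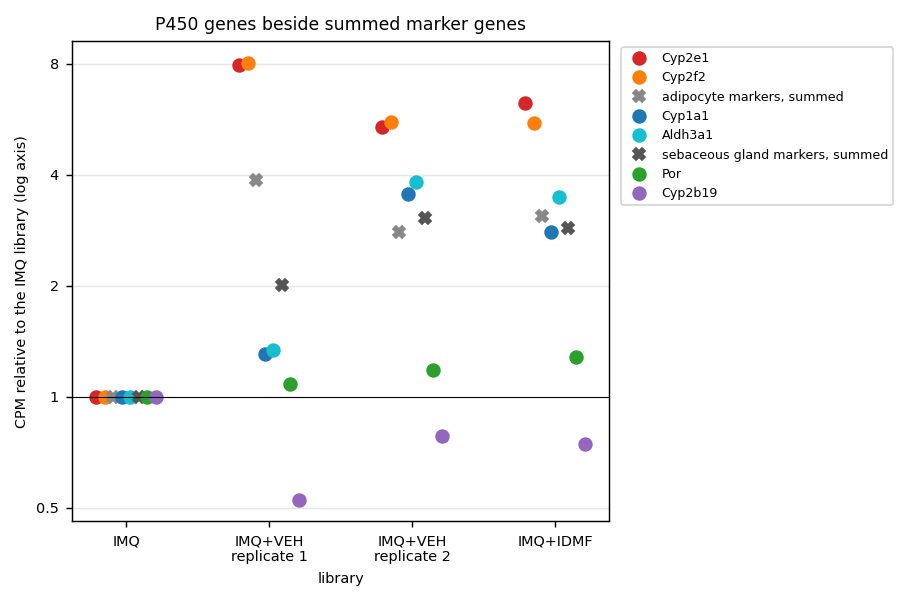
CPM of 6 members (circles) and summed CPM of adipocyte and sebaceous gland markers (crosses) in each library, relative to the IMQ library (log axis). Cyp2e1 and Cyp2f2 stand 5.37 to 8.05 times above IMQ in the lotion libraries and the adipocyte sum 2.79 to 3.86 times, while Cyp1a1 and Aldh3a1 follow the sebaceous gland sum in order.

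In the AhR pathway no gene passed the test in this comparison. The receptor gene Ahr had 62.7 CPM in IMQ, 53.5 and 65.3 in IMQ+VEH and 53.3 in IMQ+IDMF, a log2 fold change of -0.08 (SE 0.27) for IMQ+VEH over IMQ. Arnt, its DNA-binding partner, had 46.8, 45.7, 37.5 and 45.2 CPM in the same order (-0.17, SE 0.28). For both genes the IMQ value lies within or just above the range of the other libraries. Tiparp, an ADP-ribosyltransferase that marks the receptor for decay, had 48.4, 37.8, 46.8 and 39.4 CPM (-0.19, SE 0.28). Ahrr, with 62, 75, 45 and 28 counts, had a value near 0 (SE 0.67) whose sign turned with the scaling. By these values neither the receptor nor its feedback genes differed beyond their error between IMQ+VEH and IMQ.

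The enzymes of the pathway varied more, and did so within the replicated group. Cyp1a1, the enzyme gene most used as a readout of AhR, had 9.58 CPM in IMQ, 12.5 and 33.9 in IMQ+VEH replicates 1 and 2, and 26.8 in IMQ+IDMF. Aldh3a1, an aldehyde dehydrogenase also known as an AhR target, had 23.7, 31.7, 90.2 and 82.6 CPM in the same order. Both genes were low in IMQ and IMQ+VEH replicate 1 and high in IMQ+VEH replicate 2 and IMQ+IDMF. The 2 IMQ+VEH libraries differed by 1.43 for Cyp1a1 and 1.51 for Aldh3a1 in log2 CPM. The log2 fold changes over IMQ were 1.27 (SE 0.50, edgeR adjusted p = 0.452) for Cyp1a1 and 1.36 (SE 0.48, edgeR adjusted p = 0.364) for Aldh3a1. Without IMQ+VEH replicate 2 these values were 0.39 and 0.42, and without replicate 1 they were 1.83 and 1.93. The sum of the sebaceous gland markers (given above) has the same order of libraries, but single markers vary. Scd3, Awat1, Awat2 and Elovl3 keep it, Far2, Fa2h and Soat1 are highest in IMQ+IDMF, and Mogat1 and Plin5 in IMQ+VEH replicate 1. Dgat2l6 is lower in IMQ+IDMF than in IMQ+VEH replicate 1. The part of these markers in the Cyp1a1 and Aldh3a1 values was not tested. Cyp1b1, the third gene of the family and one also expressed in stroma, went another way, with 20.2 CPM in IMQ, 31 and 20 in IMQ+VEH and 23.3 in IMQ+IDMF. Its high library was IMQ+VEH replicate 1, in which fibroblast markers (summed 6367 CPM, against 1706 to 3322 in the others) were also highest, none of them at 0, and their part in it was not tested. Cyp1a1 shares 3.55% of its 50-base windows, mostly with Cyp1a2.

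Por, which supplies electrons to all microsomal P450 enzymes, had 106 CPM in IMQ, 115 and 125 in IMQ+VEH and 136 in IMQ+IDMF, a narrow range (log2 fold change over IMQ 0.18, SE 0.27).

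**Figure D3:**
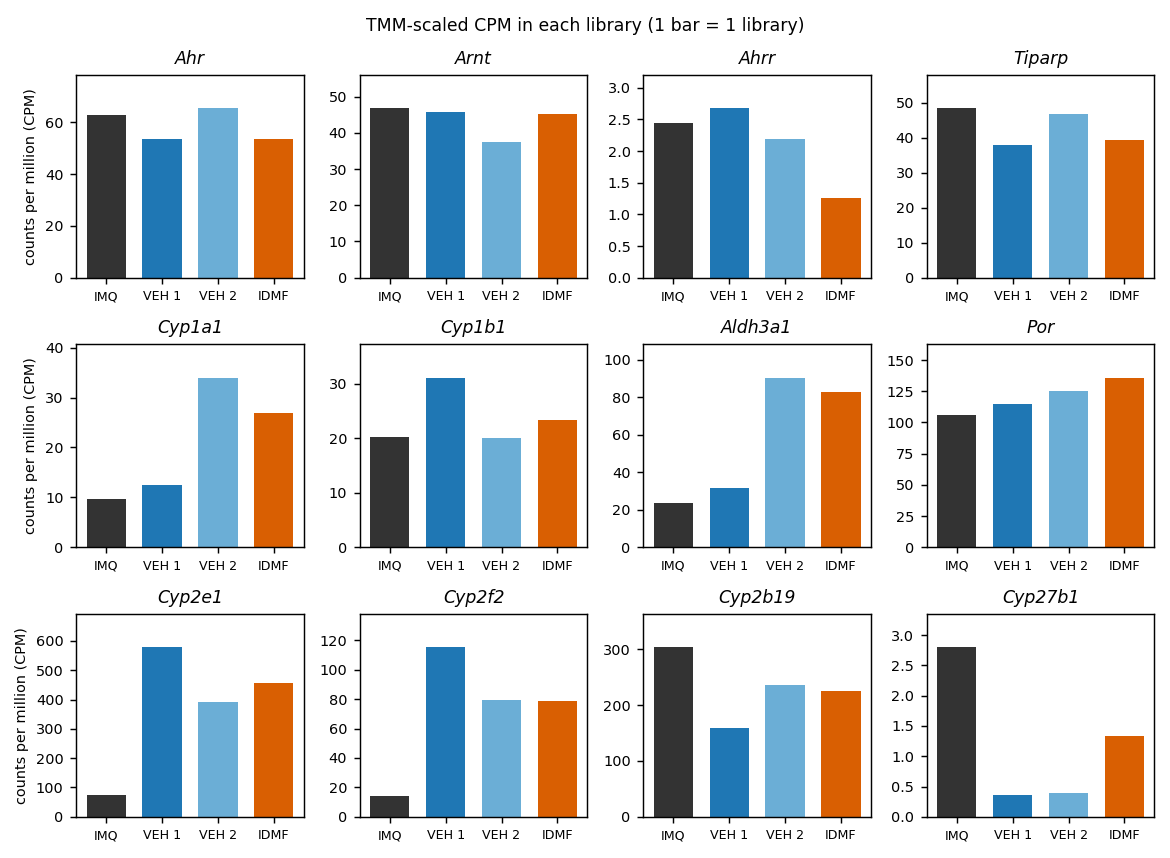
TMM-scaled CPM of 12 members in each library, 1 bar per library and each axis starting at 0 (VEH 1 and VEH 2 are the IMQ+VEH replicates). Cyp1a1 and Aldh3a1 are high in IMQ+VEH replicate 2 and IMQ+IDMF, Cyp2e1 and Cyp2f2 are low in IMQ, and Cyp27b1 is highest in IMQ.

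The Cyp2 family held 18 members. In both IMQ+VEH libraries 7 lay above IMQ, against 33.6% of all genes, and 6 below, against 35%. Of the 18 members, 8 lie in a stretch of chromosome 7 (25802475 to 27133660, GRCm38). In this stretch the mean difference of IMQ+VEH to IMQ ran from -1.09 for Cyp2s1 to 2.74 for Cyp2f2, with a median of -0.60. Cyp2f2 and Cyp2b23 were above IMQ in both libraries, and 4 of the 8 were below in both. Cyp2e1 lies far from this stretch (140763739 to 140774987 on the same chromosome).

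Cyp2b19, the keratinocyte enzyme that makes epoxides of arachidonic acid, had 303 CPM in IMQ, 160 and 237 in IMQ+VEH and 225 in IMQ+IDMF. IMQ was the highest library, and the log2 fold change was -0.61 (SE 0.33, edgeR adjusted p = 0.676). Keratinocyte markers summed to 55443 CPM in IMQ, 42211 and 52050 in IMQ+VEH and 47901 in IMQ+IDMF. In both IMQ+VEH libraries 5 of 6 were below IMQ, 0 called, and their part in the Cyp2b19 values was not tested. Cyp2b10, known in liver as a target of the nuclear receptor CAR, had 70.9, 30.8, 71.2 and 43.6 CPM, so that the IMQ+VEH pair spanned all other libraries. Cyp2b13 had 90, 35, 72 and 48 counts and followed the same order except that IMQ was highest, but 27.3% of its 50-base windows occur in other transcripts, mostly of Cyp2b10, so that reads of the pair may be exchanged. Cyp2b23 had 52, 67, 103 and 84 counts, and Cyp2b9 had 7, 1, 13 and 2.

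Cyp2s1, an enzyme of skin and other lining tissues, had 28.3 CPM in IMQ, 15.6 and 11.2 in IMQ+VEH and 13.5 in IMQ+IDMF. IMQ stood above all 3 other libraries, but the log2 fold change of -1.07 (SE 0.34) had an edgeR adjusted p of 0.276. Cyp2g1, known from olfactory tissue, had 30.7, 16.7, 24.3 and 36.7 CPM, and Cyp2w1 had 24, 9, 0 and 3 counts.

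Among the Cyp2j genes of chromosome 4, whose products act on arachidonic acid, Cyp2j12 had 6.66 CPM in IMQ, 14.5 and 24.3 in IMQ+VEH and 20.2 in IMQ+IDMF. IMQ was below all other libraries, with a log2 fold change of 1.54 (SE 0.41, edgeR adjusted p = 0.17). Cyp2j6, the most abundant of them per length at 11.7 to 14.5 FPKM, had 66.5, 57.3, 69.3 and 54.6 CPM, and its groups overlap (-0.07, SE 0.27). Cyp2j8 and Cyp2j9 had log2 fold changes of 0.55 (SE 0.58) and -0.52 (SE 0.47).

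The remaining Cyp2 genes had few counts. Cyp2d22 had 50 counts in IMQ, 145 and 81 in IMQ+VEH and 63 in IMQ+IDMF (1.21, SE 0.61). Cyp2u1 had 3, 35, 13 and 13 counts, with IMQ at the floor of detection. Cyp2r1, a vitamin D hydroxylase of the liver, had 65, 21, 76 and 37 counts, and Cyp2ab1 had 10, 28, 1 and 13. For the last 2 genes the IMQ+VEH replicates lay on either side of both other groups.

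In the Cyp3 family, 4 genes known in liver for drug and steroid oxidation, Cyp3a57 had 5.75 CPM in IMQ, 8.38 and 16 in IMQ+VEH and 13 in IMQ+IDMF (1.08, SE 0.47, edgeR adjusted p = 0.523). Cyp3a13 had 18.7, 13.3, 26.6 and 21.9 CPM, and the IMQ+VEH pair spanned the other libraries. Cyp3a25 and Cyp3a59 had at most 16 and 13 counts, and share 26.8% and 28% of their 50-base windows with other transcripts.

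The Cyp4 family hydroxylates fatty acids and held 10 members. In both IMQ+VEH libraries 4 lay above IMQ, against 33.6% of all genes, and 4 below, against 35%. Cyp4f39, the mouse counterpart of the enzyme that makes the very long omega-hydroxy fatty acids of barrier ceramides, had 127 CPM in IMQ, 93 and 131 in IMQ+VEH and 118 in IMQ+IDMF. The groups overlap (-0.18, SE 0.29). Cyp4b1 had 8.2, 16.2, 13.9 and 17.9 CPM, with IMQ lowest (0.88, SE 0.37, edgeR adjusted p = 0.5), and 10.3% of its windows are shared, mostly with a pseudogene. Cyp4f17 had 10.8, 5.99, 5.22 and 5.05 CPM, with IMQ highest (-0.95, SE 0.44, edgeR adjusted p = 0.566). In both Cyp4b1 and Cyp4f17 the 3 lotion libraries lay on 1 side of IMQ.

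Cyp4f13 (233 to 304 counts) and Cyp4f16 (188 to 260) were nearly flat, with log2 fold changes of 0.27 (SE 0.38) and -0.08 (SE 0.40). Cyp4v3 had 104, 206, 129 and 106 counts (0.73, SE 0.50), and Cyp4f37 had 62, 124, 77 and 43 (0.74, SE 0.61). Cyp4f16 and Cyp4f37 share 26.5% and 21.7% of their windows, mostly with each other. Cyp4f18, an enzyme of neutrophils that inactivates leukotriene B, had 14 counts in IMQ, 7 and 0 in IMQ+VEH and 0 in IMQ+IDMF. Cyp4a31 and Cyp4a32 had 22 counts or fewer in each library.

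Sterol, steroid, retinoid and vitamin D enzymes belong to the small families. Cyp27b1, the enzyme that makes the active hormone form of vitamin D, had 71 counts in IMQ, 10 and 8 in IMQ+VEH and 30 in IMQ+IDMF, or 2.8, 0.356, 0.39 and 1.34 CPM. The IMQ+VEH pair lay close together and below both other groups. The log2 fold change was -2.89 (SE 0.81), the largest downward value among members with counts in every library, and its edgeR adjusted p was 0.192. Keratinocytes are a known site of this enzyme outside the kidney. Hair follicle markers were lower in each IMQ+VEH library than in IMQ, 10 of 10, 3 of them called. Their sum had the same order of libraries as Cyp27b1, at 71.8 CPM in IMQ, 10.7 and 14.2 in IMQ+VEH and 32 in IMQ+IDMF. Single markers did not all keep that order. Hoxc13, Msx2, Lef1 and Shh were higher in IMQ+IDMF than in IMQ, while the keratin genes of the list were lower. Among the markers, Krt85 had 0 counts in both IMQ+VEH libraries and Krt35 in replicate 2. Their part in the Cyp27b1 values was not tested. The vitamin D receptor gene Vdr was chosen after its values were seen. Its level was 110 CPM in IMQ, 81 and 88.3 in IMQ+VEH and 121 in IMQ+IDMF (-0.38, SE 0.26).

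Cyp26b1, which breaks down retinoic acid, had 16.9 CPM in IMQ, 30.4 and 28.7 in IMQ+VEH and 26.5 in IMQ+IDMF (0.81, SE 0.31, edgeR adjusted p = 0.432). Cyp27a1, the mitochondrial sterol side-chain hydroxylase, had 14.7, 28.3, 23 and 20.6 CPM (0.80, SE 0.33, edgeR adjusted p = 0.477). In both genes IMQ was below all lotion libraries. Cyp17a1 and Cyp11a1, enzymes of steroid hormone synthesis, showed the opposite order: 34.6, 15.7, 24.8 and 21.8 CPM for Cyp17a1 (-0.77, SE 0.33), and 6.03, 2.89, 3.17 and 3.35 CPM for Cyp11a1 (-0.99, SE 0.53). Neither passed the test, with edgeR adjusted p of 0.508 and 0.667.

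Cyp39a1 (238 to 383 counts) and Cyp7b1 (182 to 255), which hydroxylate oxysterols, had log2 fold changes of -0.34 (SE 0.35) and -0.12 (SE 0.40). Cyp20a1, an orphan enzyme, had 88, 228, 78 and 103 counts, with IMQ+VEH replicate 1 alone high. Cyp8b1 and Cyp46a1, of bile acid synthesis and of brain cholesterol turnover, had at most 46 and 22 counts.

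IMQ+IDMF against IMQ+VEH asked what IDMF adds to the lotion. No member passed the test, and no gene of all 15068 did (0% called by edgeR, and DESeq2 also called 0 genes). Each member had an edgeR adjusted p of 1. At an unadjusted p under 0.05 there was 1 member of 51, Cyp2g1, against 2.03% of all genes. IMQ+IDMF lay above both IMQ+VEH libraries for 10 members, against 27.7% of all genes, and below both for 15, against 27.5%. The members' median log2 difference was 0.03, beside 0.01 over all genes. This comparison shares the IMQ+VEH libraries with the one above, so a gene with a low IMQ+VEH value is pushed down in one and up in the other.

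Cyp2g1 (CPM given above) was highest in IMQ+IDMF, with a log2 fold change of 0.84 (SE 0.31) and differences of 1.13 to IMQ+VEH replicate 1 and 0.59 to replicate 2. The IMQ library lay between. Cyp27b1 had 1.84 (SE 0.85) and lay above both IMQ+VEH libraries but below IMQ. Cyp3a25 had 16 counts in IMQ+IDMF against 4 in IMQ and 5 and 2 in IMQ+VEH, and Cyp46a1 had 22 against 13 and 10 and 3. Hair follicle markers were also above both IMQ+VEH libraries in IMQ+IDMF, 10 of 10 with a median log2 difference of 1.67 and 0 called, and their part in these values was not tested. Cyp3a25 and Cyp46a1 had SE of 1.26 and 1.09 around log2 fold changes of 2.30 and 1.91.

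IMQ+IDMF was the lowest of all 4 libraries for 8 of 51 members, against 19.5% of all genes. Ahrr (28 counts, log2 fold change -0.96, SE 0.72) and Cyp4f37 (43 counts, -1.09, SE 0.63) were among these. Of other members below both IMQ+VEH libraries, Cyp2d22 had 63 counts (-0.70, SE 0.59) and Cyp4v3 106 (-0.53, SE 0.49). None of these 4 passed the test. In IMQ+IDMF 7 of 7 fibroblast, 5 of 5 macrophage, 3 of 4 T cell and 3 of 4 mast cell markers were below both IMQ+VEH libraries. Their part in these values was not tested. Cyp26b1 (-0.16, SE 0.30), Cyp27a1 (-0.32, SE 0.32), Ahr (-0.16, SE 0.27) and Cyp2f2 (-0.30, SE 0.29) were also below both.

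For the AhR target enzymes the direction hung on the IMQ+VEH library. Cyp1a1 had a log2 fold change of 0.21 (SE 0.46), with 1.10 to replicate 1 and -0.34 to replicate 2. Aldh3a1 had 0.44 (SE 0.44), with 1.38 and -0.13. Cyp1b1 had -0.14 (SE 0.34), with -0.42 and 0.22. Tiparp (-0.10, SE 0.28) and Arnt (0.12, SE 0.28) lay between the pair. Por was above both, by 0.25 and 0.12. Cyp2e1 had -0.09 (SE 0.37), so the level reached with the placebo lotion was also seen with the IDMF lotion.

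**Figure D4:**
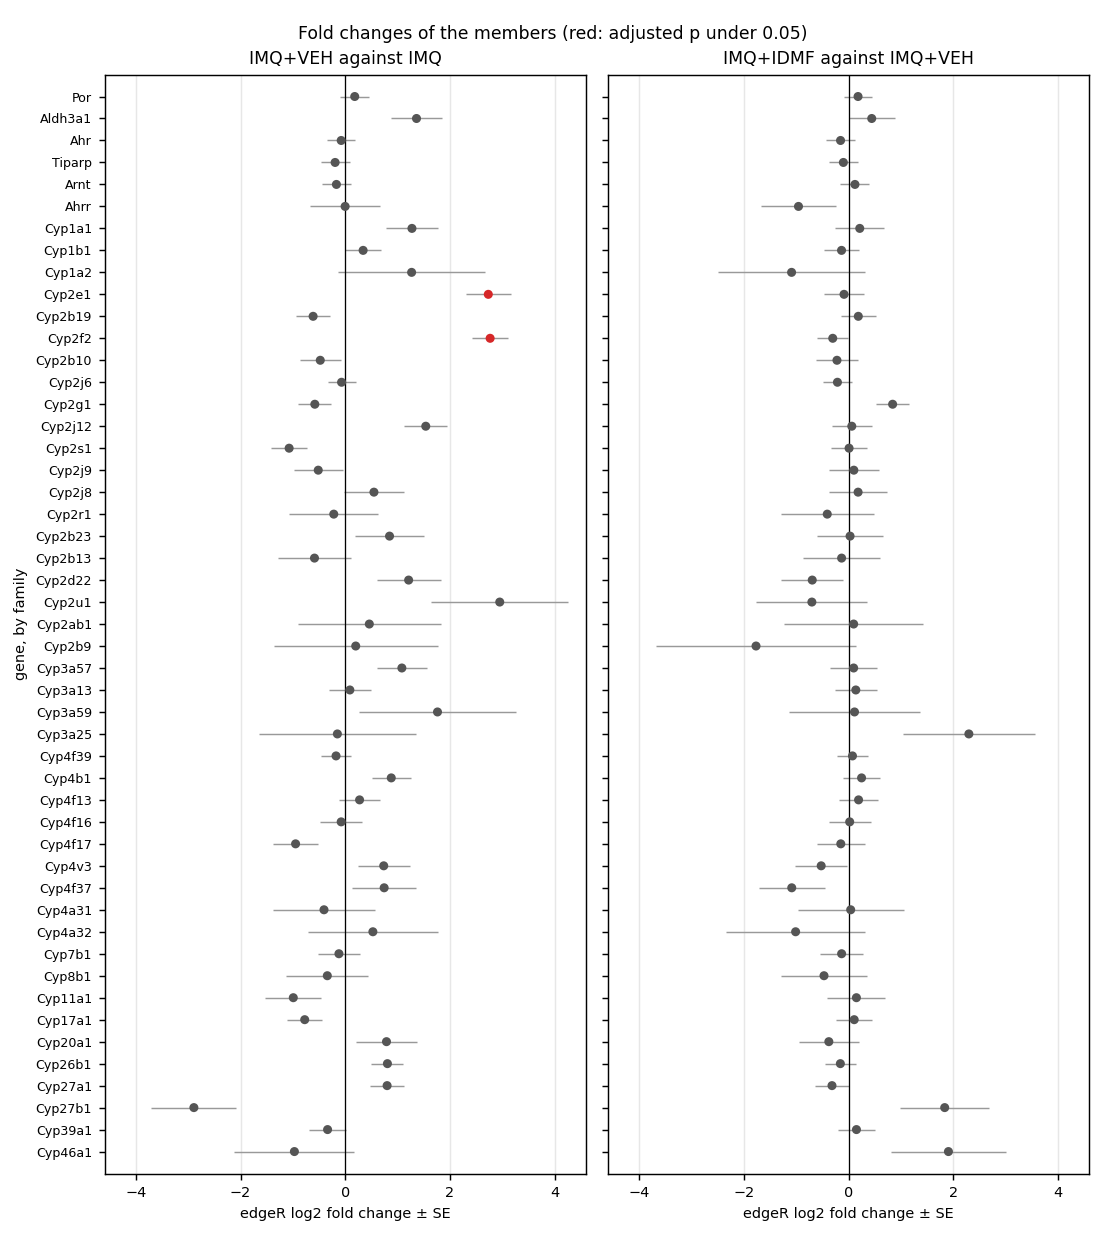
EdgeR log2 fold changes with SE bars for 49 members in both comparisons, ordered by family, with red points for an adjusted p under 0.05. Cyp2w1 and Cyp4f18, with 0 counts in a library, are left out, and the red points are Cyp2e1 and Cyp2f2 in IMQ+VEH against IMQ.

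For IMQ+IDMF against IMQ, with 1 library each, sizes are given with no test. Over 2-fold higher were 10 of 51 members, against 6.78% of all genes, and over 2-fold lower were 6, against 4.51%. The higher ones with 100 or more counts were Cyp2e1 (log2 difference 2.64), Cyp2f2 (2.46), Aldh3a1 (1.80), Cyp2j12 (1.59), Cyp1a1 (1.48), Cyp3a57 (1.17) and Cyp4b1 (1.12). The lower ones were Cyp2s1 (-1.06) and Cyp4f17 (-1.09). All 3 lotion libraries were above IMQ for 19 members, against 28.9% of all genes, and below it for 17, against 30.1%.

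Other genes of the same pathways, taken from lists, gave 1 call, in IMQ+VEH against IMQ. Of all genes 0.664% passed in that comparison, and 0% in IMQ+IDMF against IMQ+VEH. Of 11 genes of the receptor complex 0 passed in either comparison. Of 12 tested AhR target genes outside the set 0 passed. Nqo1, a quinone reductase that AhR and NRF2 both induce, had 734, 395, 930 and 966 counts (log2 fold change over IMQ 0.03, SE 0.50), so it shared with Cyp1a1 the low value in IMQ+VEH replicate 1 but not the low value in IMQ. Of 8 tested genes of tryptophan breakdown, a source of AhR ligands, 0 passed. Ido1 and Il4i1 had at most 1 and 3 counts, and Kynu had 45, 29, 25 and 14.

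Of 19 genes of electron transfer and heme synthesis 0 passed. The reductase gene Cyb5r3 had 81 CPM in IMQ, 134 and 126 in IMQ+VEH and 148 in IMQ+IDMF (0.68, SE 0.28). Cyb5a, its partner, had 187, 196, 250 and 211 CPM in the same order (0.25, SE 0.32). The heme oxygenase gene Hmox1 had 82.9, 74.5, 88.7 and 69.7 CPM (-0.02, SE 0.27). Of 13 tested nuclear receptor genes 1 passed: Pparg, the regulator of fat cell and sebocyte development, with 211 counts in IMQ, 788 and 520 in IMQ+VEH and 636 in IMQ+IDMF (1.68, SE 0.33, edgeR adjusted p = 0.0452). Nr1i2 and Nr1i3, which encode the liver xenobiotic receptors PXR and CAR and were chosen after their values were seen, had at most 1 and 3 counts.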

How the data were processed

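Per the file headers, the authors deposited a raw count and an FPKM value (fragments scaled to transcript length and library size) for each of 20611 gene symbols in each library, from single-end reads of 50 cycles. Tools in the submitters' processing notes are HTSeq, TopHat2 and Cufflinks, and the genome is GRCm38 (mm10). Tool versions, annotation, strandedness and the handling of multi-mapping reads are not given in the sources, so reads of close relatives or of overlapping genes may be misplaced. Per the labels, replicates are independent biological samples.

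Counts were tested with edgeR 4.0.16 under R 4.3.3, by its two-sided quasi-likelihood F test (TMM scaling, filterByExpr, 1 mean per group, all 4 libraries, 15068 genes, Benjamini-Hochberg threshold 0.05), with 1 residual and 11.2 prior degrees of freedom. The steps were checked on simulated data. SE was derived from F, as the size of the log2 fold change over the root of F. Differences between libraries are in log2 CPM with a prior count of 2. A gene's 50-base windows were taken from its longest coding transcript in GENCODE M21 (GRCm38), which held all 51 members. Stretches of neighbouring genes were joined across gaps of up to 1000000 bases.

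The members and lists were chosen with earlier results of these data known. Named were the 6 AhR pathway genes and the Cyp1 family, members called, other members with 100 or more counts in a library, and fixed genes of the lists, of which 1 is not reported here. Remaining members are named where their counts are given, chosen after their values were seen. Alternatives were DESeq2 1.42.0, other scalings, other filters, other groupings, other prior counts, FPKM values (pseudocount 0.1), and leaving out libraries.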

Additional observations from a re-analysis of the deposited data

How the results depend on the processing

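In IMQ+VEH against IMQ, Cyp2e1 and Cyp2f2 kept their direction and passed in every alternative that gives a test, with adjusted p from 1.96e-11 to 0.0255 for Cyp2e1 and from 1.66e-13 to 0.0258 for Cyp2f2. No paired analysis was possible because the groups share fewer than 2 replicate numbers. In that comparison 100 genes (51 higher, 49 lower) and 2 members were called. Without a filter on low counts it was 424 genes (310 higher, 114 lower) and 6 members (Aldh3a1, Cyp1a1, Cyp27b1 and Cyp2j12 joined), with DESeq2 202 genes (140 and 62), and with IMQ+VEH and IMQ+IDMF as 1 group against IMQ 55 genes (20 and 35). Leaving out IMQ+VEH replicate 1, with IMQ+VEH replicate 2 and IMQ+IDMF as 1 group (chosen after seeing the data), gave 498 genes and 7 members (6 higher, 1 lower), and leaving out replicate 2 in the same way gave 92 genes and 2 members. The causes were not tested. The members' median of -0.08 became -0.0103 with total counts, 0.0150 with a mean count of at least 50, 0.00415 with DESeq2 and 0.0317 in FPKM. It ran from -0.0649 to 0.0525 with 1 library left out, and was -0.0305 without replicate 1 and 0.0803 without replicate 2 in the joined lotion group. In IMQ+IDMF against IMQ+VEH, no filter gave 16 genes and 0 members, and the median ran from -0.128 to 0.0603 with libraries left out.

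Each reversal was of a value that had not passed the test in its comparison. Ahrr over IMQ was 0.00587 with DESeq2 size factors, 0.0719 with total counts, 0.000202 without a filter, 0.00684 with a mean count of at least 50, 0.00415 with DESeq2 and 0.0107 without IMQ+IDMF, and ran from -0.153 to 0.130 with an IMQ+VEH library left out. With all lotion libraries as 1 group, Cyp2b9 was -0.19 and Cyp3a25 1.04. With that group less replicate 1, Cyp2ab1 was -0.29, Cyp2r1 0.0629, Cyp3a25 1.35 and Cyp46a1 0.16, and less replicate 2, Cyp3a13 was -0.0927, Cyp3a25 1.44 and Cyp46a1 0.36. With IMQ and IMQ+VEH as 1 group against IMQ+IDMF, Cyp11a1 was -0.26, Cyp17a1 -0.20, Cyp26b1 0.0638, Cyp2b19 -0.0509, Cyp2e1 0.39, Cyp2f2 0.18, Cyp2j9 -0.0942, Cyp2s1 -0.44, Cyp4a31 -0.11 and Cyp4f16 -0.00689. Genes under 100 counts in every library (16 members) are limited by counting error.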

Other observations

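A few chosen pairs of members were compared, and some kept nearly 1 ratio of counts in all 4 libraries while their levels moved. Cyp2e1 counts were 5.10 times those of Cyp2f2 in IMQ, 5.02 and 4.92 times in IMQ+VEH replicates 1 and 2, and 5.78 times in IMQ+IDMF, although each gene differed over 5-fold between libraries. Aldh3a1 counts were 2.47, 2.53, 2.66 and 3.08 times those of Cyp1a1 in the same order. Other pairs did not keep 1 ratio. Cyp2b19 counts were 4.28, 5.19, 3.33 and 5.17 times those of Cyp2b10. Cyp1a1 counts were 60.75, 29.25, 99.4 and 150 times those of Cyp1a2, which had 4 to 12 counts. These ratios also hold the genes' lengths and are descriptions of 4 libraries.

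Cyp2b10 counts were 20 times those of Cyp2b13 in IMQ, 24.7 and 20.3 times in IMQ+VEH and 20.3 times in IMQ+IDMF, and this pair shares transcript sequence as given above. The part of shared reads in it was not tested.

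For Cyp3a25 the deposited values disagree: IMQ+VEH replicate 1 has 5 counts and 0.0161 FPKM, and IMQ has 4 counts and 0.0638 FPKM. Per the submitters' processing notes both HTSeq and Cufflinks were used, and this gene shares 26.8% of its 50-base windows with other transcripts.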
